A study of Mus musculus with 56 samples.

Results

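The peaks described here are those that the peak annotation of each list named for Cxcl1, Cxcl2 or Cxcl3, the chemokine genes whose products draw neutrophils to sites of inflammation. They were taken from all 56 peak lists by gene name alone, whatever their score, antibody or condition, and came to 419 of the 1610519 peaks in the series. Cxcl1 held 224 of them, Cxcl2 139 and Cxcl3 56. The data are chromatin immunoprecipitation sequencing (ChIP-seq) of wild-type mouse bone marrow-derived macrophages (BMDMs) from animals aged 8 to 12 weeks, which were differentiated for 6 days with L929 cell supernatant. In one experiment BMDMs received no cytokine or 1 hr of interleukin-4 (IL-4, 20 ng/ml), and peaks were given for RNAPII-pS5, RNAPII-pS2, H3K27Ac, PU1, p300, HDAC1, HDAC2 and HDAC3. In the other, BMDMs received nothing, 24 hr of IL-4, 1 hr of lipopolysaccharide (LPS, 100 ng/ml), or 24 hr of IL-4 followed by 1 hr of LPS, and peaks were given for RNAPII-pS5, RNAPII-pS2 and p65. The LPS dose is that of the sample labels, and the methods section states it in a molar unit instead. Each group of each antibody had 2 replicates. The study describes the replicates as independent biological ones.

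Cxcl1, Cxcl2 and Cxcl3 are small secreted proteins of the CXC family that bind the receptor CXCR2 on neutrophils. In macrophages their genes are classical early targets of Toll-like receptor 4, the LPS receptor, which releases the NF-kB subunit p65 into the nucleus. IL-4 activates the transcription factor STAT6 and drives macrophages toward an alternative state. RNAPII-pS5 and RNAPII-pS2 are RNA polymerase II (RNAPII) phosphorylated on serine 5 or serine 2 of its tail, the forms typical of initiation and of elongation. H3K27Ac is a histone mark of active enhancers and promoters, p300 is an acetyltransferase that writes it, the HDAC proteins are histone deacetylases that remove acetyl groups, and PU1 is the lineage-determining factor of macrophages.

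The 3 genes lie on the plus strand of chromosome 5 in the mm10 build (GRCm38), in the order Cxcl3, Cxcl1, Cxcl2. Cxcl3 spans chr5:90786101-90788093, Cxcl1 spans chr5:90891245-90893121 and Cxcl2 spans chr5:90903899-90905938. All 3 promoters share an 11-base run that matches the NF-kB consensus on both strands, and no longer run is common to their 250 bases before the start. Their RefSeq promoter sequences (GRCm38.p6, plus strand) are printed because p65 binding there is one of the readouts, with NF-kB matches and the TATAAA box in capitals.
Cxcl3, chr5:90785851-90786100: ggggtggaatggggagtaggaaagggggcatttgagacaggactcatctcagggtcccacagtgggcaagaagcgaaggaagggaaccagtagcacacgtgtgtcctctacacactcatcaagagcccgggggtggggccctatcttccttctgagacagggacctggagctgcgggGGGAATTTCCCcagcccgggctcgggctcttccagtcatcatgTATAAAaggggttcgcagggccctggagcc
Cxcl1, chr5:90890995-90891244: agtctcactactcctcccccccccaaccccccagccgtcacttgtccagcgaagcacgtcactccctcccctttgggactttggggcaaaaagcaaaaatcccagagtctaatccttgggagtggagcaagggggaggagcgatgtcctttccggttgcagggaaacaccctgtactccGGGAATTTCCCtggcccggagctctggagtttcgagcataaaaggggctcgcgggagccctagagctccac
Cxcl2, chr5:90903649-90903898: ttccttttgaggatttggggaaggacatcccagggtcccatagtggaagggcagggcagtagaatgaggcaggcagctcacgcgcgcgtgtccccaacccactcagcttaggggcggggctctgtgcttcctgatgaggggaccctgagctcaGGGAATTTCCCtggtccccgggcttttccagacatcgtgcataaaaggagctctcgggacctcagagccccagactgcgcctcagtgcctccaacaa
The run starts 73 bases before the start of Cxcl3, 71 before that of Cxcl1 and 97 before that of Cxcl2, written as -73, -71 and -97. It was held by 14 of 32841 mouse promoters of the same length, or 0.043%, and any match to the NF-kB consensus by 7.3%. TATAAA was matched only in the Cxcl3 promoter, and 12.4% of all promoters held it. None of the 3 promoters held AP-1 (TGANTCA), C/EBP (TTGCNNAA), PU.1 (GAGGAAGT) or STAT6 (TTCNNNNGAA) letters on either strand, which 6.8%, 9.6%, 2.4% and 5.9% of all promoters held.

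Most peaks of these genes were not at promoters. HOMER placed 341 of the 419 peaks (81.4%) between genes, against 39.0% of all peaks in the series, and 32 (7.6%) at promoters. Within 1000 bp of the annotated gene lay 18 of the 224 Cxcl1 peaks, 44 of the 139 Cxcl2 peaks and 19 of the 56 Cxcl3 peaks. The factors bound a shared set of upstream sites. p65, p300, PU1, HDAC1, HDAC2 and HDAC3 all had peaks at 7 of the 22 merged sites, found 2.2 kb before Cxcl3, 37.9, 29.1, 14.5 and 9.6 kb before Cxcl1, and 6.2 and 5.2 kb before Cxcl2. The sequences around the highest p65 peak of a pair of these sites are printed because the responses to IL-4 and to LPS below turn on them. Neither held an NF-kB match in the 201 bases shown.
Cxcl3 -2.2 kb, chr5:90783812-90784012: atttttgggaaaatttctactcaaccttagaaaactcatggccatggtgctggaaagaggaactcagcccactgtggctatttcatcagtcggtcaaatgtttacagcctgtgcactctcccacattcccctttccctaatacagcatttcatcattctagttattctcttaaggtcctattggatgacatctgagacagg
Cxcl1 -9.5 kb, chr5:90881628-90881828: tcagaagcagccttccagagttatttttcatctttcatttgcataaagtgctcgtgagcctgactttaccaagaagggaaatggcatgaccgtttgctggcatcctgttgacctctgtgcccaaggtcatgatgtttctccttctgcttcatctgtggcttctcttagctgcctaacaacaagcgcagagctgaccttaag
The site 6.2 kb before Cxcl2 lies midway between Cxcl1 and Cxcl2, so that the same RNAPII-pS5 peak was named for Cxcl1 in 3 lists and for Cxcl2 in 5. Among the HDAC lists its peaks were named for Cxcl1 3 times and for Cxcl2 6 times. When these peaks were all counted for Cxcl2, an alternative chosen after seeing the data, no call below changed.

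Some lists stood apart and are given before the results. Lists held 8440 to 71027 peaks, and with no read counts in them the sequencing depth is unknown. The p300 list of untreated replicate 1 held 44787 peaks with a median score of 11.0, so p300 results are given with and without it. In 4 lists, those of RNAPII-pS2 from the experiment with 1 hr of IL-4, the peak names carry the opposite treatment to the sample labels; the labels are used, and every sign of that comparison would turn if the names were right. The label of the HDAC3 samples gives the same antibody catalogue number as that of H3K27Ac. Of 7 macrophage markers, 5 had an RNAPII-pS5 peak in both untreated lists of the 1 hr experiment (Csf1r, Cd68, Itgam, Lyz2 and Mertk), and Adgre1 and Spi1 had none. Of the neutrophil markers S100a8 and Elane had one in both, and S100a9, Ly6g and Mpo had none. One of 4 markers each for T cells (Cd4), B cells (Ms4a1) and epithelial cells and fibroblasts (Epcam) also had one in both. For H3K27Ac 3 of the 7 macrophage markers had a region in both untreated lists (Csf1r, Itgam and Mertk), and Adgre1, Cd68, Spi1 and Lyz2 had none. S100a8, Cd4, Ms4a1 and Epcam had a region in both as well. The macrophage markers summed to 1089.1 and 1107.2 tags and the B cell markers to 849.8 and 867.2.

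The first comparison asked how 1 hr of LPS changed RNAPII and p65 at the chemokine genes. The value of a gene is the sum of the scores of all its peaks. A score is taken as the peak caller's -log10 significance, a unit that no header states. Serine 5-phosphorylated RNAPII rose at all 3 genes. At Cxcl1 the RNAPII-pS5 sums were 17.91 and 19.24 in untreated cells and 62.09 and 51.70 with LPS. At Cxcl2 they were 26.37 and 14.41 against 76.35 and 67.65, and at Cxcl3 no peak against 23.13 and 27.07. For each gene both LPS replicates lay above both untreated ones, and the share of all genes that did so was not counted. By limma on log2 sums, each sample centred on the median of genes with a peak in every sample, the log2 change was 1.93 ± 0.29 (SE, adjusted p = 0.00569) for Cxcl1 and 2.21 ± 0.44 (adjusted p = 0.0152) for Cxcl2. For Cxcl3 it was 4.44 ± 0.29 (adjusted p = 0.00168), a size set by the floor score given to the untreated lists. All 3 genes were thus called higher, where 8.30% of 12477 genes were called higher.

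RNAPII-pS2, the elongating form, also rose at all 3 genes. At Cxcl1 the sums were 38.77 and 40.20 in untreated cells and 99.70 and 102.31 with LPS. At Cxcl2 they were 44.14 and 29.43 against 104.73 and 87.82, and at Cxcl3 no peak against 17.05 and 22.53. The groups did not overlap for any of the 3, again without a count of the share over all genes. The log2 changes were 1.13 ± 0.24 (adjusted p = 0.0203), 1.19 ± 0.26 (adjusted p = 0.0217) and 3.59 ± 0.40 (adjusted p = 0.00228) in the same order, by limma. Of 13663 genes 11.8% were called higher. Several of these calls rested on both replicates of a group. The RNAPII-pS5 call of Cxcl2 was lost without untreated replicate 2 (adjusted p = 0.0776), LPS replicate 1 (0.0665) or LPS replicate 2 (0.051), and the RNAPII-pS2 call of Cxcl1 without any one of the 4 libraries (adjusted p 0.0639 to 0.0868). The RNAPII-pS2 call of Cxcl2 was lost without untreated replicate 2 (0.0861), LPS replicate 1 (0.0888) or LPS replicate 2 (0.0618). Calls also ended with the highest peak in place of the sum for RNAPII-pS5 at Cxcl1 (0.88, adjusted p = 0.0899) and RNAPII-pS2 at Cxcl2 (0.82, 0.06), without intergenic peaks for RNAPII-pS2 at Cxcl1 (0.85, 0.359) and with the upper 50% of peaks for RNAPII-pS2 at Cxcl3 (0.87, 0.0967).

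**Figure D1:**
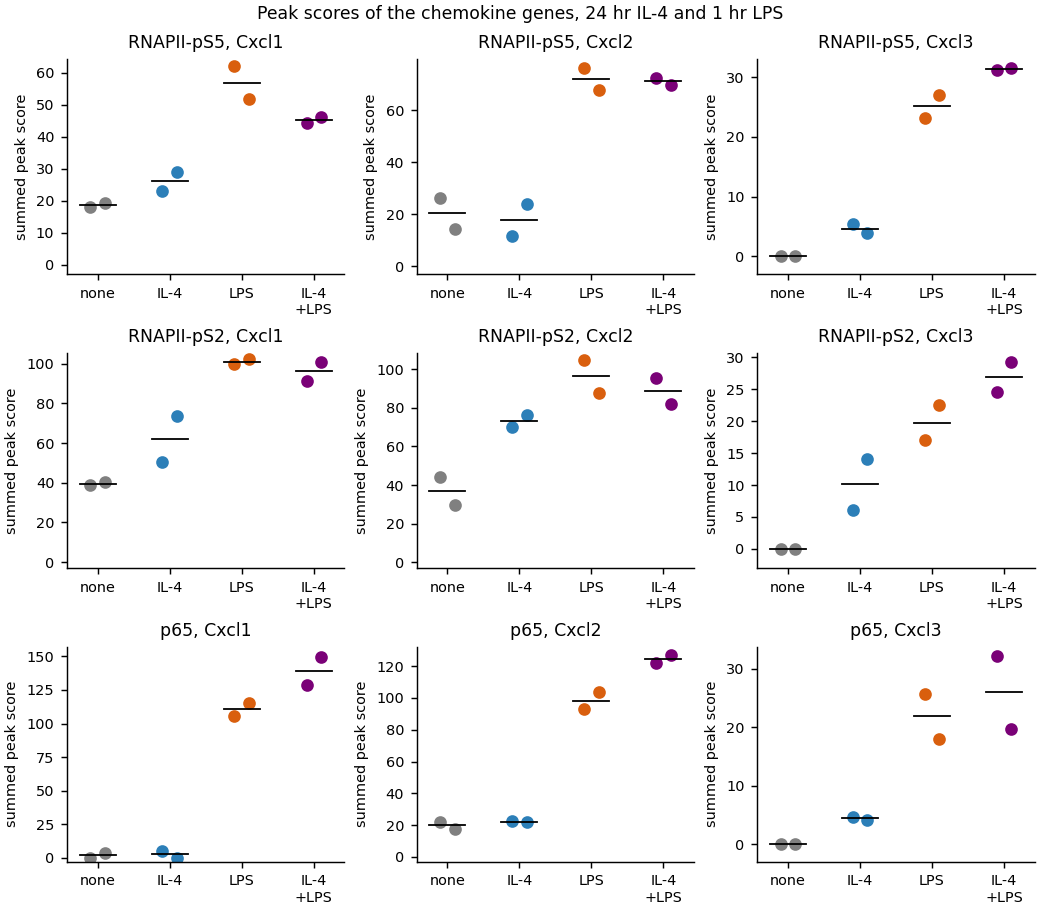
Summed peak score (y axis, no unit, taken as a -log10 significance summed over peaks) of each gene in each of the 8 lists per antibody, by treatment (x axis). Points are the 2 replicates, lines their mean, and 0 means no peak. RNAPII-pS5 and RNAPII-pS2 points with LPS lie above the untreated points for all 3 genes.

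In the LPS experiment RNAPII peaks at the genes themselves were listed almost only with LPS. None of its 4 RNAPII-pS5 lists without LPS held a peak within 1000 bp of Cxcl1 or Cxcl3, and none of its 4 RNAPII-pS2 lists without LPS held one at any of the 3 genes. In the 1 hr experiment the lists labelled IL-4 did hold RNAPII-pS2 at the Cxcl2 gene, at 22.22 and 25.40. Untreated replicate 1 of that experiment held RNAPII-pS5 peaks at the Cxcl2 gene summing to 18.13, and its other RNAPII-pS5 lists held none there. In the LPS experiment Cxcl2 was the exception for RNAPII-pS5, with sums at the gene of 8.52 and 4.16 in untreated cells and none after 24 hr of IL-4. With LPS a single RNAPII-pS5 peak of 3574 to 3721 bp covered Cxcl2, scoring 66.46 and 67.65 with LPS and 72.50 and 69.53 with IL-4 and LPS. RNAPII-pS2 gave the same picture at Cxcl2, with 54.21 and 45.45 for LPS and 58.91 and 58.95 for IL-4 and LPS. Cxcl1 differed for RNAPII-pS2 with LPS alone, with no peak and 6.43 at the gene while its other peaks summed to 99.70 and 95.88. At Cxcl3 the sums of RNAPII-pS5 at the gene were 23.13 and 21.18 with LPS and 31.26 and 31.44 with IL-4 and LPS.

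At the site midway between Cxcl1 and Cxcl2 RNAPII-pS5 peaks were listed only without LPS. Its peak scored 6.16 and 6.09 without any treatment and 7.99 and 6.60 with 24 hr of IL-4, and none of the 4 LPS lists held a peak there. The site 5.2 kb before Cxcl2 held RNAPII-pS5 peaks of 11.69 and 10.25 without any treatment and 11.53 and 17.42 with IL-4, and in 1 of the 4 LPS lists (9.89). RNAPII-pS2 stayed at both sites in all lists with LPS. At the midway site it scored 28.68 and 21.65 with LPS alone and 10.71 and 9.04 with IL-4 and LPS. At the site 5.2 kb before Cxcl2 it scored 21.84 and 20.72 with LPS alone and 25.89 and 13.74 with IL-4 and LPS. The site 9.6 kb before Cxcl1 had higher scores of both forms with LPS alone. RNAPII-pS5 scored 5.21 and 13.15 in untreated cells and 23.63 and 17.65 with LPS. There RNAPII-pS2 scored 10.22 and 15.27 in untreated cells, 58.29 and 52.22 with LPS, and 36.66 and 29.80 with IL-4 and LPS. These site values were not tested. The RNAPII-pS5 lists with LPS alone held 14476 and 15349 peaks against 20803 and 19279 for untreated cells, and the part of list size in a missing peak was not tested.

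**Figure D2:**
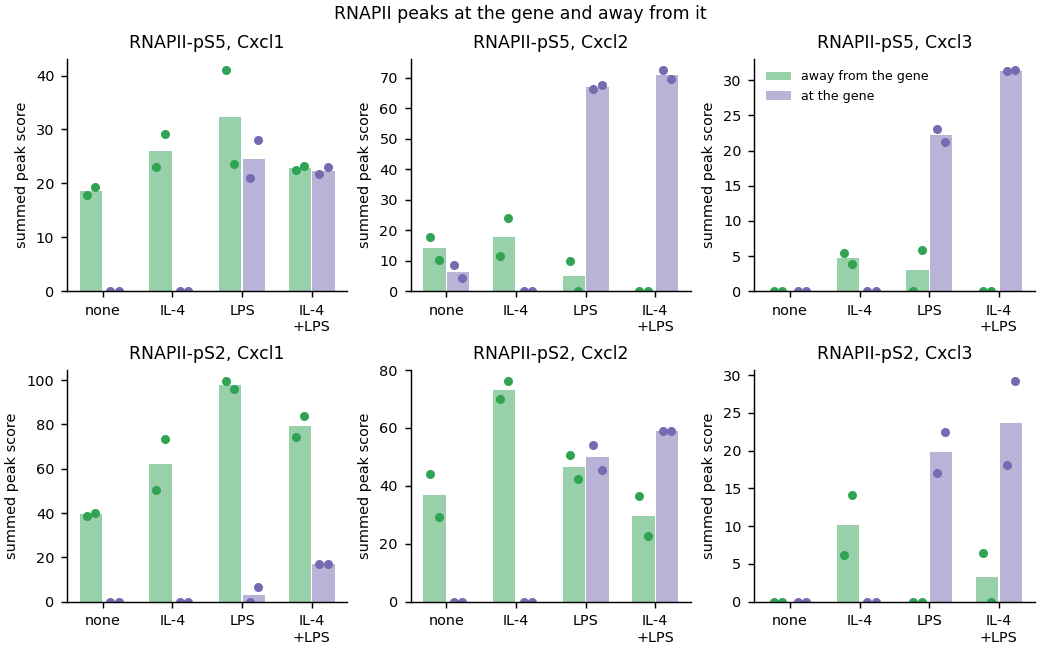
RNAPII peak score (y axis, summed, no unit) of peaks within 1000 bp of the gene (purple) and of all other peaks of that gene (green), by treatment (x axis). Bars are means and points the 2 replicates; bars at the gene appear with LPS, apart from small RNAPII-pS5 values at Cxcl2 in untreated cells.

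p65 peaks at these genes were few and low before LPS. Summed over Cxcl1, p65 scored no peak and 3.59 in untreated cells and 105.65 and 115.44 with LPS. At Cxcl2 it scored 22.10 and 17.71 against 92.92 and 103.74, and at Cxcl3 no peak against 25.71 and 17.97. Every LPS value lay above every untreated one, and the share of all genes that did so was not counted. LPS raised p65 scores across the genome too, with a median 3.11-fold higher in the genes with a peak in every list, and the tested changes are relative to that median. On this scale Cxcl1 rose by a log2 change of 4.03 ± 0.71 (adjusted p = 0.00877) and Cxcl3 by 2.40 ± 0.36 (adjusted p = 0.00528). Cxcl2, which alone of the 3 had p65 in all untreated lists, changed by 0.67 ± 0.24 (adjusted p = 0.0779) and was not called. Without centring its change was 2.31 (adjusted p = 0.000569). With a floor 4 times higher the Cxcl3 call was lost (0.40, adjusted p = 0.286) and Cxcl2 was called (0.67, 0.0108), and with the upper 50% of peaks likewise (0.09, 0.741 and 0.95, 0.0123). Without intergenic peaks both the Cxcl1 (1.06, 0.135) and Cxcl3 (-0.48) calls were lost. Thus 2 of 3 genes were called higher by limma, where 19.1% of 12312 genes were.

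By site, 14 merged p65 sites belonged to the 3 genes, 9 of them with peaks only in lists with LPS, and 13 were tested. Site scores were centred in the same way, with a median 2.07-fold higher with LPS. With LPS 8 of the 13 were called higher, against 26.9% of 37564 sites, by limma on log2 site scores, and 3 were called when untreated replicate 1 was left out. Of the 8, those 29.1, 14.8 and 0.1 kb before Cxcl1 had peaks only in lists with LPS. The site 6.2 kb before Cxcl2 had a single peak without LPS (6.43 in IL-4 replicate 1), too few to be tested without the LPS lists. These sites entered the test through lists with LPS, so that they had to lie above the floor there, and nothing is read from the count. The Cxcl2 promoter site, 0.4 kb before the start, was the single site with p65 in all 8 lists. It scored 11.52 and 14.81 in untreated cells and 51.41 and 52.59 with LPS, a centred log2 change of 0.95 ± 0.21 (adjusted p = 0.0147). The site 14.8 kb before Cxcl1 had no peak in the 4 lists without LPS and scored 35.40 and 26.43 with LPS. The site 9.5 kb before Cxcl1 went from no peak and 3.59 to 40.13 and 41.12 (3.18 ± 0.72, adjusted p = 0.0162). Both sites had no more than 1 weak peak in the untreated lists. The promoter sites of all 3 genes hold the 11-base run. The Cxcl1 promoter site scored only 5.03 and 5.59 with LPS and no peak before it, and the Cxcl3 promoter site had a p65 peak in 1 of 2 LPS lists (5.58).

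**Figure D3:**
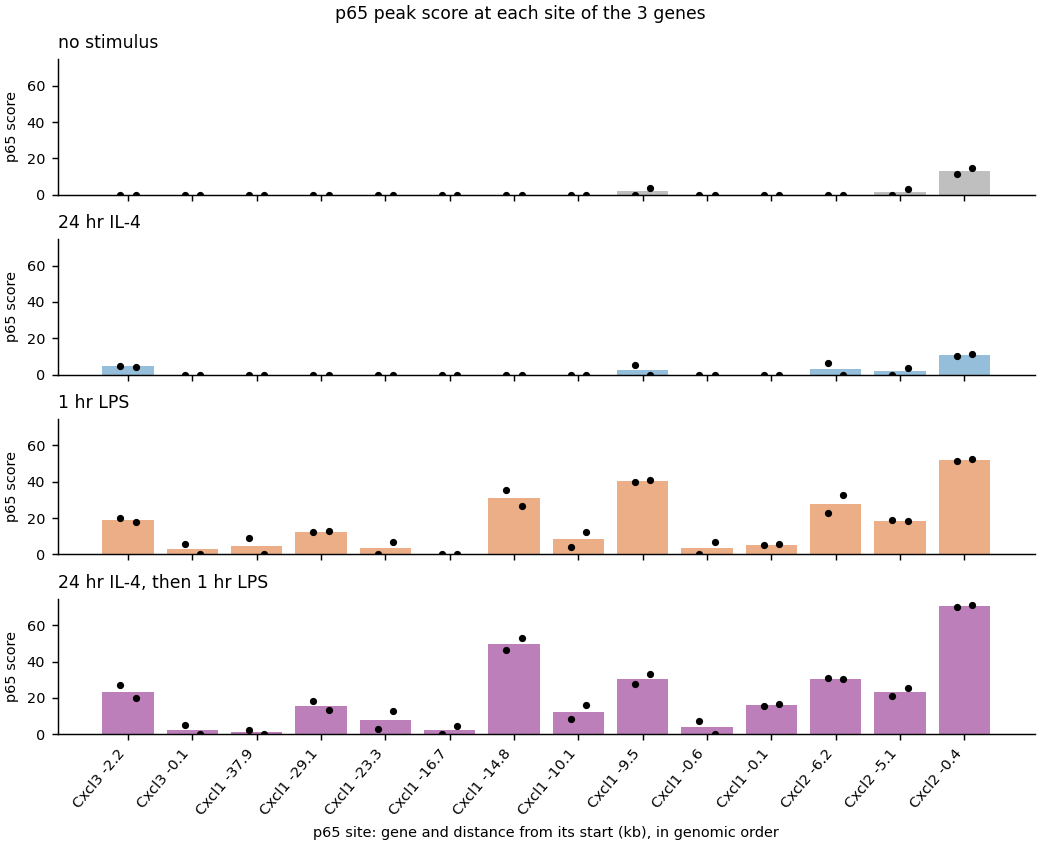
p65 peak score (y axis, taken as -log10 significance) at the 14 sites of the 3 genes, ordered along the chromosome (x axis, distance in kb from the start of the named gene), for the 4 treatments. Bars are means, points the 2 replicates and 0 means no peak; before LPS the Cxcl2 promoter site stands highest, at 11.52 and 14.81.

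The next comparison asked what 24 hr of IL-4 alone did. Cxcl3 gained low peaks 2.2 kb upstream for all 3 antibodies. RNAPII-pS5 scored 5.41 and 3.89 there after IL-4, RNAPII-pS2 6.17 and 14.08, and p65 4.72 and 4.19, while the untreated lists held no peak of Cxcl3 for any of the 3. By limma Cxcl3 was called higher in each, with log2 changes of 1.60 ± 0.29 (adjusted p = 0.0247), 2.81 ± 0.40 (adjusted p = 0.00874) and 1.91 ± 0.36 (adjusted p = 0.0375). These sizes depend on the floor, and with a floor 4 times higher all 3 calls were lost (-0.07, 0.81 and 0.15). The RNAPII-pS5 call was also lost without either untreated library or IL-4 replicate 1, and the p65 call without either untreated, IL-4 or LPS library, when 0 members were called. The RNAPII-pS2 call was lost without untreated replicate 1 (2.76, adjusted p = 0.0525). At the p65 site itself the log2 change was 1.96 ± 0.24 (adjusted p = 0.0117), the single member site of 13 called, against 2.74% of all sites called higher. No member site was called without either untreated library or IL-4 replicate 1, and 2 were without IL-4 replicate 2.

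Cxcl2 gained RNAPII-pS2 after 24 hr of IL-4, from 44.14 and 29.43 to 69.84 and 76.31, with both IL-4 replicates above both untreated ones. Its log2 change was 1.09 ± 0.26 (adjusted p = 0.0438), and this rise came from the upstream sites, since no list of either group held RNAPII-pS2 at the gene. The call was lost without any single library of the 8 (adjusted p 0.0595 to 0.155), or with the replicate number as a block (0.0589). Cxcl1 rose from 38.77 and 40.20 to 50.47 and 73.41 without passing the test (0.69 ± 0.24, adjusted p = 0.12), but was called with the upper 50% of peaks (1.20, adjusted p = 0.00806). RNAPII-pS5 did not pass the test at either gene, with 0.41 ± 0.29 (adjusted p = 0.499) for Cxcl1 and -0.30 ± 0.44 (adjusted p = 0.783) for Cxcl2. Without intergenic peaks Cxcl2 was called lower (-1.97, adjusted p = 0.0307). The members called higher were 1 of 3 in the RNAPII-pS5 fit (5.13% of genes), 2 in the RNAPII-pS2 fit (7.90%) and 1 in the p65 fit (3.82%).

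The third comparison asked whether 24 hr of IL-4 changed the state reached with LPS. No member was called for any antibody by limma, and none reached an unadjusted p under 0.05. Of all genes, 10.0% were called in either direction in the RNAPII-pS5 fit, 8.46% in the RNAPII-pS2 fit and 12.5% in the p65 fit. RNAPII-pS5 at Cxcl1 was 62.09 and 51.70 with LPS and 44.21 and 46.17 with IL-4 and LPS, groups that did not overlap, with a log2 change of -0.61 ± 0.29 (adjusted p = 0.247). At Cxcl2 it was 76.35 and 67.65 against 72.50 and 69.53 (-0.30 ± 0.44, adjusted p = 0.705), and at Cxcl3 23.13 and 27.07 against 31.26 and 31.44 (0.04 ± 0.29, adjusted p = 0.934). RNAPII-pS2 sums at Cxcl1 were 99.70 and 102.31 against 91.29 and 100.94 (-0.12 ± 0.24, adjusted p = 0.864). Summed p65 was higher with IL-4 and LPS in raw score at all 3 genes, at 128.75 and 149.86 against 105.65 and 115.44 for Cxcl1. The median of all shared genes was 1.42-fold higher as well, and centred changes were -0.17 ± 0.71, -0.16 ± 0.24 and -0.28 ± 0.36 for Cxcl1, Cxcl2 and Cxcl3.

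One p65 site was called. At the Cxcl1 promoter p65 scored 5.03 and 5.59 with LPS and 15.74 and 16.61 with IL-4 and LPS, with no overlap and a log2 change of 1.34 ± 0.17 (adjusted p = 0.00232). It was the single site called of 13, fewer than the 25.7% of all sites called higher, and nothing is read from the count. At this site both groups without LPS hold only the floor. They enter the estimate of the spread, so the SE may be too small. Without LPS replicate 2 there were 2 such calls, and without replicate 1 of IL-4 and LPS there were 0. RNAPII-pS5 peaks at the Cxcl1 gene differed in shape between the same groups. In the LPS lists the Cxcl1 gene held 3 and 4 RNAPII-pS5 peaks summing to 21.08 and 28.10, the widest of 902 and 593 bp, while in the IL-4 and LPS lists a single peak of 3586 and 3569 bp scored 21.67 and 23.03. RNAPII-pS2 at the Cxcl1 gene was no peak and 6.43 against 16.99 and 17.08. At the site 9.6 kb upstream the order was reversed, with RNAPII-pS2 at 58.29 and 52.22 against 36.66 and 29.80, and p65 at the site 9.5 kb upstream at 40.13 and 41.12 against 27.87 and 33.16 (-0.69 ± 0.72, adjusted p = 0.555).

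The interaction, which tests whether LPS changed a gene by another factor with than without IL-4, called no member by limma for RNAPII-pS5 (6.11% of genes called in either direction), RNAPII-pS2 (6.38%) or p65 (7.42%). RNAPII-pS2 had 1 call without replicate 1 of IL-4. For Cxcl3 the interaction estimates were -1.56 ± 0.42 (adjusted p = 0.0862) for RNAPII-pS5, -2.40 ± 0.56 (adjusted p = 0.0663) for RNAPII-pS2 and -2.18 ± 0.51 (adjusted p = 0.0638) for p65. Each had an unadjusted p under 0.05. So had RNAPII-pS5 at Cxcl1 (-1.02 ± 0.40, adjusted p = 0.204) and RNAPII-pS2 at Cxcl2 (-1.25 ± 0.37, adjusted p = 0.115). The untreated lists held no Cxcl3 peak, so the Cxcl3 estimates rest on the floor. For RNAPII-pS5 the Cxcl3 estimate was 0.11 with a floor 4 times higher, 0.08 without intergenic peaks and 0.19 with the upper 50% of peaks. For RNAPII-pS2 it was 0.16 without intergenic peaks. Among p65 sites 2 of 13 were called, against 23.2% of all sites in either direction. They were the site 2.2 kb before Cxcl3 (-1.94 ± 0.33, adjusted p = 0.0112) and the Cxcl1 promoter (1.14 ± 0.24, adjusted p = 0.0225). The count was 0 without either untreated library or without replicate 2 of IL-4 and LPS, 1 without replicate 1 of IL-4 or of IL-4 and LPS, and 3 without replicate 2 of IL-4 or of LPS. The comparisons of this experiment share samples, so their changes are not independent of each other.

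**Figure D4:**
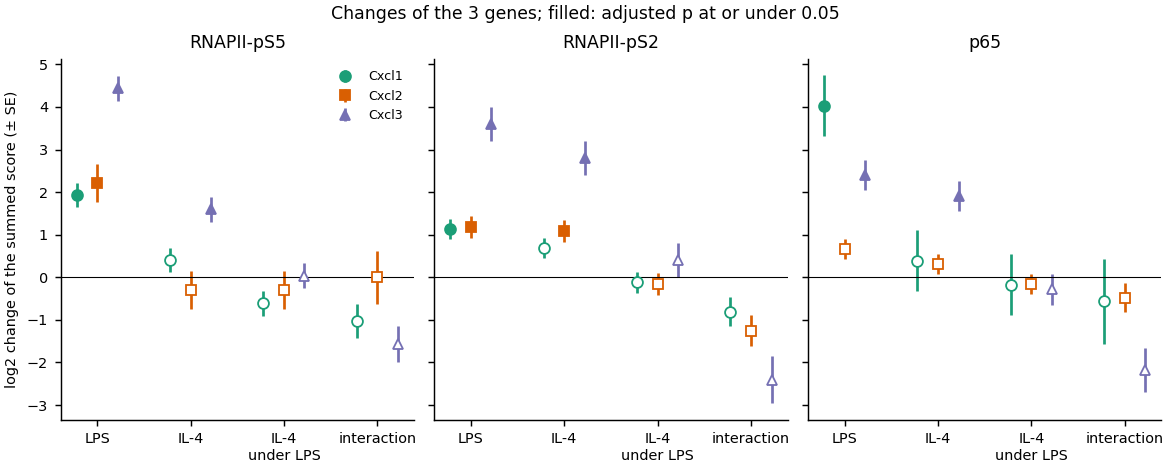
Log2 change of the summed score (y axis, ± SE) of Cxcl1, Cxcl2 and Cxcl3 in the 4 comparisons (x axis) for each antibody, from 8 lists per antibody. Filled symbols passed an adjusted p of 0.05; with LPS they include all 3 genes for both RNAPII forms, and under LPS no IL-4 change is filled.

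The last comparison asked what 1 hr of IL-4 did to unstimulated macrophages. H3K27Ac fell at the upstream regions of Cxcl1 and Cxcl2. Its values are tags per region, normalized by the authors' region finder, and Cxcl3 had no region in any list. Summed over Cxcl1 the tags numbered 232.3 and 239.3 in the untreated lists and 129.5 and 126.7 in the IL-4 lists. For Cxcl2 they were 162.1 and 175.3 against 66.6 and 67.0. The groups were far apart for both genes. The log2 changes by limma were -0.87 ± 0.05 (adjusted p = 0.00477) and -1.33 ± 0.07 (adjusted p = 0.0035), or 0.546-fold and 0.398-fold. Both genes were called lower, as were 18.1% of 13035 genes. At Cxcl1 the region 14.4 kb upstream held 198.3 and 207.4 tags before and 129.5 and 126.7 after IL-4, and the weak regions at the sites 37.9 and 29.1 kb upstream, at 14.7 to 19 tags, were not listed after IL-4. The single Cxcl2 region overlapped the sites 6.2 and 5.2 kb before that gene in all 4 lists.

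RNAPII-pS5 was lower at Cxcl1 in both IL-4 lists, at 21.06 and 21.86 against 41.53 and 33.29, but the log2 change of -0.75 ± 0.17 did not pass (adjusted p = 0.198). At Cxcl2 the untreated replicates themselves differed, at 41.30 and 5.19, against 10.96 and 9.38 after IL-4 (-0.49 ± 0.91, adjusted p = 0.867). Cxcl3 had 1 peak in these lists (7.51 in untreated replicate 1) and was not tested. Of 13481 genes 1.05% were called in either direction. RNAPII-pS2, by the sample labels, showed the opposite order. At Cxcl2 it was 6.07 and 7 in the lists labelled untreated and 22.22 and 41.06 in those labelled IL-4, and at Cxcl1 no peak against 6.48 and 9.03, so that Cxcl1 entered the test only through the lists labelled IL-4. The log2 changes were 2.29 ± 0.38 and 2.20 ± 0.35 (adjusted p = 0.0819 for both), no gene of 10617 was called (0%), and 1781 had an unadjusted p under 0.05. By the peak names of these lists the signs would be negative. The uncalled RNAPII-pS5 signs were not stable. The change was 0.02 for Cxcl1 with the highest peak in place of the sum, and 0.75 for Cxcl2 without untreated replicate 1.

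**Figure D5:**
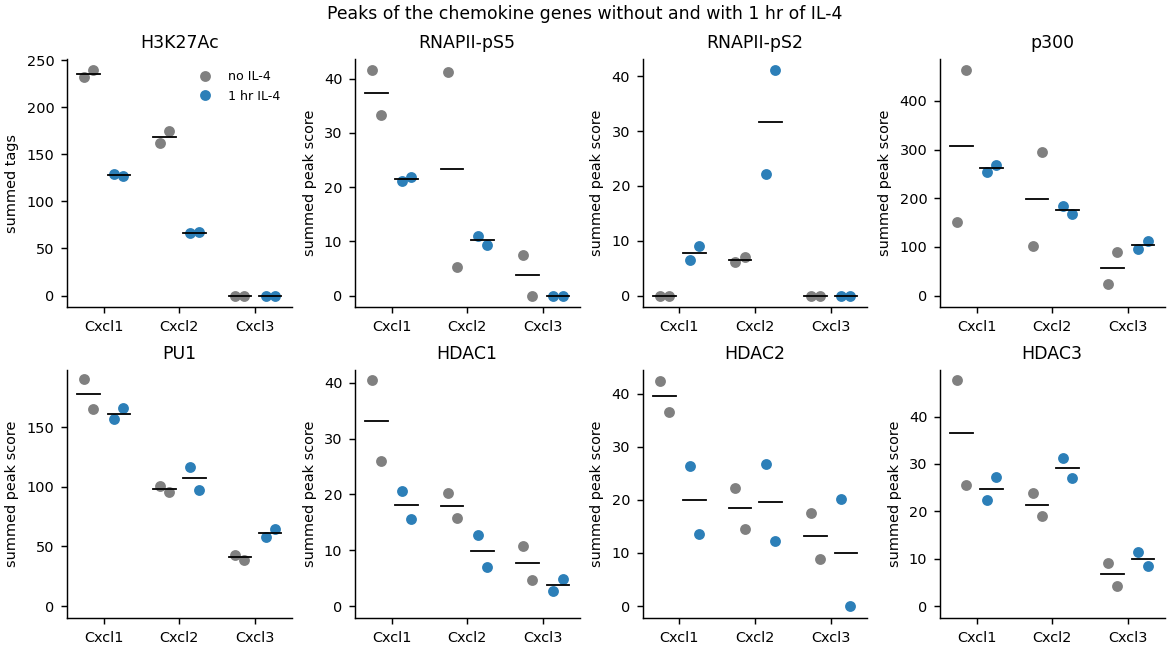
Summed values (y axis, peak score or, for H3K27Ac, normalized tags) of the 3 genes (x axis) without (grey) and with (blue) 1 hr of IL-4 for 8 antibodies. Points are the 2 replicates, lines their mean and 0 means no peak; H3K27Ac points separate clearly for Cxcl1 and Cxcl2.

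p300, PU1, HDAC1, HDAC2 and HDAC3 gave no calls among the members. p300 at Cxcl1 was 152.11 and 464.14 without IL-4, where the lower value is the list that stands apart, and 254.82 and 267.70 after IL-4. The centred log2 change was -0.88 ± 0.15 (adjusted p = 0.0971) for Cxcl1, -0.83 ± 0.17 (0.113) for Cxcl2 and 0.31 ± 0.18 (0.347) for Cxcl3. Without that list the changes were -0.84 (0.115), -0.76 (0.143) and 0.21 (0.466). No gene of 15708 was called for p300 (0%), though 4053 had an unadjusted p under 0.05 and uncentred scores gave 401 calls. PU1 at Cxcl3 was 43.19 and 38.64 without IL-4 and 58.24 and 64.28 with it, groups that did not overlap, with a centred change of 0.29 ± 0.28 (adjusted p = 0.777). PU1 changed by -0.43 ± 0.27 at Cxcl1 and -0.17 ± 0.30 at Cxcl2 (adjusted p = 0.67 and 0.886), and called no gene of 15653 (0%, 1604 at an unadjusted p under 0.05).

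HDAC2 at Cxcl1 was 42.37 and 36.60 without IL-4 and 26.42 and 13.53 with it (-1.14 ± 0.39, adjusted p = 0.472). HDAC1 at Cxcl1 was 40.45 and 25.91 against 20.60 and 15.57 (-0.40 ± 0.37, adjusted p = 0.835), and HDAC3 was 47.71 and 25.51 against 22.38 and 27.23 (-0.92 ± 0.41, adjusted p = 0.401). In uncentred mean score all 3 deacetylases were lower at Cxcl1 after IL-4, and the replicates overlapped for HDAC3 only. The median log2 score of genes with an HDAC1 peak in every list was lower too. It was 4.28 and 3.94 without IL-4 and 3.71 and 3.59 with it. How many of all genes separated in this way was not counted, so nothing is read from the separation. At Cxcl2 HDAC3 was higher in both IL-4 lists, at 31.16 and 27.05 against 23.82 and 19.05, with a centred change of 0.03 ± 0.38. HDAC1, HDAC2 and HDAC3 called no gene of 12319, 10464 and 6015 (0% each), and 1091, 991 and 925 had an unadjusted p under 0.05. With 2 lists against 2 an exact two-sided permutation test of a single value cannot go below p = 0.333.

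The other genes of the pathway were read from a list of 7 (Cxcl5, Cxcl15, Ppbp and Pf4, which encode related chemokines, and the receptors Cxcr1, Cxcr2 and Ackr1). With LPS, 4 of the 7 were tested and 2 were called higher for RNAPII-pS5, where 8.30% of all genes were. The median log2 change of the 4 was 1.23 against -0.34 over all genes. The genes called were Cxcr1 (3.70, adjusted p = 0.00411) and Cxcr2 (2.14, adjusted p = 0.0289). Both were called for RNAPII-pS2 as well (2.37 and 2.62, adjusted p = 0.0108 and 0.0034), where 11.8% of all genes were. For centred p65, Cxcl5 (1.42, adjusted p = 0.0142) and Cxcr1 (1.83, adjusted p = 0.0164) were higher and Pf4 (-1.79, adjusted p = 0.0328) lower, against 19.1% and 16.0% of all genes. These changes are relative to the median, which was 3.11-fold higher with LPS, so the Pf4 value does not show a loss of p65 in raw score. After 24 hr of IL-4 alone Cxcr2 was higher for RNAPII-pS5 (3.56, adjusted p = 0.012), RNAPII-pS2 (3.22, adjusted p = 0.00309) and p65 (3.09, adjusted p = 0.00908), and Cxcr1 for RNAPII-pS5 (2.53, adjusted p = 0.0289). Of all genes 5.13%, 7.90% and 3.82% were called higher in these fits. Under LPS, 24 hr of IL-4 raised p65 at Cxcr2 (1.74, adjusted p = 0.0267), against 10.3% of all genes called higher. The interaction was negative for RNAPII-pS5 at Cxcr1 (-3.92, adjusted p = 0.0332) and Cxcr2 (-3.45, 0.0496) and for RNAPII-pS2 at Cxcr2 (-2.51, 0.0357). In this direction 2.89% and 2.96% of all genes were called. How far the calls of this list depend on the floor given to missing peaks was not examined. After 1 hr of IL-4, H3K27Ac at Pf4 fell by 0.49 on the log2 scale (adjusted p = 0.0115). Of 10 other chemokine genes, LPS raised RNAPII-pS5 at 6 of 9 tested (median 1.64), where 8.30% of all genes were called higher. For RNAPII-pS2 it was 1 of 9 (median 0.34, against 11.8% of all genes), and for centred p65 1 of 10 higher and 2 lower (19.1% and 16.0% of all genes), shares near or below those of all genes in the higher direction. After 1 hr of IL-4, H3K27Ac was lower at 4 of 9 and higher at 1, against 18.1% and 14.8% of all genes.

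The nearest genes with an RNAPII-pS5 peak on either side were Pf4 and Mthfd2l. Pf4, which encodes platelet factor 4, had RNAPII-pS5 sums of 9.91 and 9.65 in untreated cells, and 4.35 and no peak with LPS. Its RNAPII-pS2 sums were 20.10 and 21.13 untreated, 38.94 and 33.68 with IL-4 and 11.63 and 3.82 with LPS. Mthfd2l, a mitochondrial folate enzyme gene, had no RNAPII-pS5 peak in any of the 8 lists of the LPS experiment. Neither neighbour thus had higher RNAPII-pS5 sums with LPS, and the difference from the 3 chemokine genes was not tested.

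Genes whose pattern was most like each member were sought over the 24 lists of the LPS experiment, as Pearson's r of centred log2 sums after removing each antibody's mean, among 10105 genes. For Cxcl1 they were Tiparp (r = 0.96), AI118078 (0.94), Krcc1, Rsg1 and Pabpc2 (0.93 each). For Cxcl2 they were Olfr433, Olfr432, Rasgef1b and Cept1 (0.89 each) and Rest (0.88). For Cxcl3 they were Btg1 and Gm11981 (0.94), Phldb1 and Alpk2 (0.93) and Gcm1 (0.92). Among the members r was 0.82 for Cxcl2 and Cxcl3, 0.59 for Cxcl1 and Cxcl3 and 0.50 for Cxcl1 and Cxcl2. The 24 points share 4 treatments and the floor given to missing peaks, and these correlations are descriptions only.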

How the data were processed

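The 56 peak lists came from double-crosslinked BMDM chromatin. The authors aligned reads to mm10 with BWA (0.7.10), called factor and RNAPII peaks with MACS2 (2.0.10), found H3K27Ac regions with HOMER (4.2), removed blacklisted regions and named the nearest gene. An input control is not given in the sources used here. SAMtools (0.1.19) is also in the submitters' processing notes. The peak scores deposited by the authors are taken as the -log10 p or q value of MACS2, a unit read from the values because no header names it, and up to 0.938% of the peaks in a list scored under 2. Scores under 2 are lower than the paper's q-value cutoff would allow for such a unit, so the unit is not settled. The H3K27Ac values deposited by the authors are signal, normalized tags per region. No read counts were used, so depth is unknown and no interval for it is given.

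Scores of all peaks of a gene were summed, or the highest taken per merged p65 site (overlap of at least 1 bp). Features with a peak in at least 2 lists were tested with limma (3.58.1, R 4.3.3) on log2 values. A missing peak took the lowest score of its antibody, which sets the size of changes against no peak. Samples were centred on features with a peak in every list, p-values were adjusted by Benjamini-Hochberg over all features, and 0.05 was the threshold. The share of all features whose groups did not overlap was not counted, and nothing is read from such a separation alone. The 4 groups of the LPS experiment shared 1 fit, and each 1 hr comparison used its own 4 lists. The script was tested on simulated data. Groups came from the sample labels. The members, the pathway and chemokine lists and the named genes rule (the 3 members everywhere, pathway genes where called, the nearest gene with RNAPII-pS5 on each side, and the 5 most alike genes per member) were chosen with earlier results of these data known. Alternatives were other scalings, floors, peak filters, site definitions and the replicate block, each library left out, and, added after seeing the data, the midway site counted for Cxcl2. Promoter sequences are 250 bases before RefSeq starts, and p65 windows reach 100 bases to each side. Figures were drawn with matplotlib (3.10.9).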

Additional observations from a re-analysis of the deposited data

Results flagged for a closer look

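At the p65 site 2.2 kb before Cxcl3 the change with LPS was smaller after 24 hr of IL-4 than without it, by a tested difference of -1.94 on the log2 scale (SE 0.33, adjusted p = 0.0112 by limma over all p65 sites). The scores were no peak in untreated cells, 4.72 and 4.19 after IL-4, 20.13 and 17.97 with LPS, and 27.15 and 19.70 with both. The groups without LPS did not overlap and those with LPS did.

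At the p65 site of the Cxcl1 promoter the change with LPS was larger after IL-4, by 1.14 (SE 0.24, adjusted p = 0.0225). No list without LPS held a peak there, and the scores were 5.03 and 5.59 with LPS and 15.74 and 16.61 with both. The values without LPS are therefore the floor in all 4 lists, and both differences rest on the floor given to missing peaks.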

How the results depend on the processing

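Of 383 alternative counts of called members or sites, 302 stayed within 1.5 times the count reported and 81 did not, and of 901 alternative log2 changes of single members 779 kept their direction and call. H3K27Ac at Cxcl1 and Cxcl2 was called under every alternative run; without intergenic peaks it could not be run, as all its member regions are intergenic. Replicate numbers did not pair the samples (correlations of deviations -0.03 to 0.08). With the replicate block 0 members were called for RNAPII-pS5 and 1 for RNAPII-pS2 after IL-4 alone, and 1 p65 site in the interaction. Without centring 1 member was called for RNAPII-pS2 after IL-4 alone, 3 for p65 with LPS, and 2 sites for IL-4 under LPS. Over all genes the p65 response to LPS was then 6229 higher and 121 lower, against 2349 and 1975 with centring, and for p65 sites 14386 and 470 against 10103 and 7423. Centring removed shifts of 1.63 for p65 genes, 1.05 for p65 sites, -0.32 for RNAPII-pS5 and 0.22 for RNAPII-pS2 with LPS. For RNAPII-pS5 with LPS the split was 1036 higher and 2139 lower with centring, 786 and 2879 without it and 1124 and 1257 with quantile normalization.

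With a floor 4 times higher the counts were 1 for RNAPII-pS2 after 1 hr of IL-4 (Cxcl2), and after IL-4 alone 0 for RNAPII-pS5, 1 for RNAPII-pS2, 0 for p65 and 0 for p65 sites, with 2 sites for IL-4 under LPS. Quantile normalization gave 0 for RNAPII-pS5 and 0 for p65 after IL-4 alone. Without intergenic peaks 2 were called for RNAPII-pS2 with LPS, 0 for RNAPII-pS2 and 0 for p65 after IL-4 alone, and 0 for p65 with LPS. The highest peak in place of the sum gave 2 for RNAPII-pS5 and 2 for RNAPII-pS2 with LPS, and 1 each (Cxcl3) in the interaction for RNAPII-pS2 and p65. The upper 50% of peaks gave 1 for HDAC3 (Cxcl1, lower), 2 for RNAPII-pS2 with LPS, 0 for RNAPII-pS5, 0 for p65 and 0 sites after IL-4 alone, and 2 sites for IL-4 under LPS. Requiring a peak in every sample, which drops Cxcl3 in the LPS experiment and Cxcl1 for p65, gave 1 for p300 (Cxcl1, lower), 2 for RNAPII-pS5 and 2 for RNAPII-pS2 with LPS, 0, 1 and 0 for RNAPII-pS5, RNAPII-pS2 and p65 after IL-4 alone, and 1 for p65 with LPS. Requiring 1 sample gave 1 for RNAPII-pS2 after IL-4 alone and 1 site in the interaction. Peaks covering 50% of a site gave 5 sites with LPS, 0 after IL-4 alone, 2 for IL-4 under LPS and 1 in the interaction, and merging across 200 bp gave 1 in the interaction. Among called changes, Cxcl3 changed sign after IL-4 alone for RNAPII-pS5 with the higher floor (-0.07), without intergenic peaks (-0.06) and with the upper 50% of peaks (-0.04). It also did so for p65 with LPS without intergenic peaks (-0.48). In the interaction its uncalled RNAPII-pS5 estimate changed sign under the same alternatives as after IL-4 alone. Its uncalled RNAPII-pS2 interaction estimate did so without intergenic peaks (0.16). Where no construction above shows it, the cause was not tested.

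With single libraries left out, the counts with LPS ranged from 2 to 3 for RNAPII-pS5, 1 to 3 for RNAPII-pS2 and 3 to 8 for p65 sites. After IL-4 alone they ranged from 0 to 1 for RNAPII-pS5, RNAPII-pS2 and p65 and 0 to 2 for sites. They were 0 to 2 for sites under LPS, and in the interaction 0 to 1 for RNAPII-pS2 and 0 to 3 for sites. A lone remaining sample of a group is there assumed to vary like the others. With depth unknown, a missing peak cannot be told from a weak one.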
